A study of Mus musculus with 2 samples.

Results

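The cytochrome P450 genes of families 1 to 4 were described in open chromatin of the newborn mouse lung. Members were the GENCODE M21 protein-coding genes whose symbol is Cyp1, Cyp2, Cyp3 or Cyp4 followed directly by 1 letter and a number, which gave 80 of 21938 genes. Families 1, 2, 3 and 4 held 3, 48, 9 and 20 of them, and 1 gene, Cyp2ab1, fell just outside the rule because 2 letters follow its family number. DNase-seq, which maps DNA that DNase I can cut, was done on whole lung of B6NCrl mice on postnatal day 0. The libraries form 1 group with 2 biological replicates, so no second tissue, age or genotype was compared. The replicates are separate biosamples under the same donor entry, their sex was not collected, and the labels do not state whether they are different animals or pools. Agreement between the libraries may therefore be partly technical.

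P450 enzymes are haem proteins that insert an oxygen atom into drugs, pollutants, steroids and fatty acids, with electrons passed on by cytochrome P450 reductase. Most enzymes of the Cyp2a, Cyp2b, Cyp2c, Cyp2d, Cyp3a and Cyp4a subfamilies are made mainly in hepatocytes, and their genes lie in tandem clusters of close copies. The lung makes a smaller set, largely in club cells of the airways, where it activates inhaled compounds such as naphthalene.

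Members were set out in 4 groups from general knowledge of the enzymes: 6 lung-type, 37 liver-type, 9 broadly expressed and 28 others. For each library the deposited files list 150-bp peaks with a score, and broader hotspots with a −log10 q-value. Both are the authors' own values, and the sources used here do not define the score. Overlapping peaks of both libraries were merged into 290376 sites, and the 161051 that held a peak of each are called shared. A promoter site lay within 500 bp of any annotated transcription start site (TSS) of the gene, and a distal site within 50 kb of the gene but over 1000 bp away from every TSS. With 1 group there is no contrast between samples, and genes are not replicates, so no test was made and counts are given beside those over all protein-coding genes. The sources used here do not give the depth. Replicate 1 had 276480 peaks and replicate 2 had 188498. Promoters of 9 of 10 lung cell markers, among them Sftpb (score 105 in replicate 1 and 81 in replicate 2), Sftpc (94 and 65) and Foxj1 (121 and 102), carried a shared site. Over all protein-coding genes, 68.5% did. The club cell marker Scgb1a1 had a peak in replicate 1 alone, with score 48. A shared promoter site was found at 2 of 10 hepatocyte markers: Alb, with scores of 36 and 40, and Apoh (121 and 98), whose site also lies at a TSS of Prkca. Serpina1a had a peak of score 13 in replicate 2 alone, and Afp, Apoa1, Ttr, Ahsg, Tat, F9 and Fgb had none.

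Sites that carry the main results were read from GRCm38, the assembly that mm10 denotes, and are printed 5′ to 3′ on the strand of the gene. The first set stands for lung-type genes. The Cyp4b1 promoter site (chr4:115647696-115647865, minus strand) is the strongest promoter site that both libraries share among lung-type members, and its CpG dinucleotides are in capitals. The Cyp2f2 site (chr7:27118196-27118405, plus strand) is centred at -1608 bp from the 5′ end, and the Cyp2b10 site (chr7:25902356-25902605, plus strand) lies in an intron, 4861 bp downstream of the 5′ end. In these the core CTCAAG, bound by the lung transcription factor NKX2-1, is in capitals on either strand, so that CTTGAG is its reverse complement.
Cyp4b1 promoter: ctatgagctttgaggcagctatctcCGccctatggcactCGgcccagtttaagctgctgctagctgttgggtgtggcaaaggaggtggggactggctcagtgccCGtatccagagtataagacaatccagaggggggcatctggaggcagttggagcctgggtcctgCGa
Cyp2f2 upstream: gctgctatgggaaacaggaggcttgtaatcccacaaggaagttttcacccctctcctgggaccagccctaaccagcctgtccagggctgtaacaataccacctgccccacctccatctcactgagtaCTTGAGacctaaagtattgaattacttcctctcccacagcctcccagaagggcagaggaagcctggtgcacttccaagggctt
Cyp2b10 intron: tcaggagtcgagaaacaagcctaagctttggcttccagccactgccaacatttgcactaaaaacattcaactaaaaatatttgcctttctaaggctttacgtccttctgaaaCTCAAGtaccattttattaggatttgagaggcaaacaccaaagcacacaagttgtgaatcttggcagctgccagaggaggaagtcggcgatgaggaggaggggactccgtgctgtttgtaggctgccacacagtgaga

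The second set stands for the Cyp1 genes, which polycyclic aromatic compounds induce through the aryl hydrocarbon receptor. Capitals mark TNGCGTG, an extended xenobiotic response element (XRE), on either strand. The Cyp1b1 upstream site (chr17:79715756-79715925, minus strand) is centred at -780 bp from the 5′ end, and the Cyp1b1 distal site (chr17:79728656-79728805, minus strand) at -13670 bp. The Cyp1a distal site (chr9:57667996-57668145, plus strand) is centred at -19857 bp from the 5′ end of Cyp1a1 and beyond the 3′ end of Cyp1a2, which is transcribed away from Cyp1a1. The fourth sequence is the Cyp1a1 site (chr9:57688216-57688405, plus strand) in its first 500 bp, which overlaps no exon, and here capitals mark bases that the RefSeq genome file gives as soft-masked.
Cyp1b1 upstream: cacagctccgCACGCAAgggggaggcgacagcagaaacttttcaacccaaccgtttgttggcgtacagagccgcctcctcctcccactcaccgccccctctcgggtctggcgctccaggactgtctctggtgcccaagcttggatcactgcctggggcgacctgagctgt
Cyp1b1 distal: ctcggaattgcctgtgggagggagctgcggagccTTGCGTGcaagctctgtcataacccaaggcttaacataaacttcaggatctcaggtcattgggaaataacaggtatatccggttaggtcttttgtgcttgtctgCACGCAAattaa
Cyp1a distal: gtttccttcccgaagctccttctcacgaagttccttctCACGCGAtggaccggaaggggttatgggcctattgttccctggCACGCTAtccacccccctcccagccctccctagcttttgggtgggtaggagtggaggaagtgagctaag
Cyp1a1 intron: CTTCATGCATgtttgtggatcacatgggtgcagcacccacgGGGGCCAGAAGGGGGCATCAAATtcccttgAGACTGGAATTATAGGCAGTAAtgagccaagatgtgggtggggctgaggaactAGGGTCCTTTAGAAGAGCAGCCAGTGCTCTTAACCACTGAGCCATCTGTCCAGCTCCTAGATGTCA

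The third set shows the contrast in promoter sequence among the other members. Capitals mark CpG dinucleotides in the Cyp2r1 promoter (chr7:114562956-114563125, minus strand) and the AP-1 motif TGANTCA in the Cyp3a13 promoter (chr5:137921596-137921745, minus strand). Cyp2r1 is the broadly expressed member richest in CpG. It had 65 within 500 bp of the 5′ end, where the group ranged from 7 to 65. Cyp3a13 is the only Cyp3a gene with a shared promoter site.
Cyp2r1 promoter: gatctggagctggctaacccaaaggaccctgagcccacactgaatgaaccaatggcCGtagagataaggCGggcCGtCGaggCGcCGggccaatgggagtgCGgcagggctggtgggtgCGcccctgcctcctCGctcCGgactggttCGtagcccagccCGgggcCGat
Cyp3a13 promoter: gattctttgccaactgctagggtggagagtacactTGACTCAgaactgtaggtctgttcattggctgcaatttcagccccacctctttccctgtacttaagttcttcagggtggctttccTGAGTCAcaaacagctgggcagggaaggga

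Of the 80 P450 genes, 20 (25%) had a shared promoter site, against 68.5% of all protein-coding genes. Replicate 1 had a promoter peak at 27 members (72.4% of all genes) and replicate 2 at 23 (69.3%), and a hotspot of both libraries lay at 21 promoters (69.2%). A further 8 members had a promoter peak in 1 library only (4.14% of all genes), 1 had peaks of both libraries that did not overlap (0.255%), and 51 had none (27.1%). By group, a shared promoter site was found at 3 of 6 lung-type members, 2 of 37 liver-type members, 9 of 9 broadly expressed members and 6 of 28 others. In a whole tissue, fewer cells with an open promoter and a less open promoter in each cell cannot be told apart.

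All 3 shared lung-type promoter sites scored below the all-gene medians of 121 in replicate 1 and 101 in replicate 2. Cyp4b1 (chr4:115624725-115647723), whose enzyme activates the pneumotoxin 4-ipomeanol, had scores of 98 in replicate 1 and 67 in replicate 2, centred at -58 bp from the 5′ end. Cyp1a1 (chr9:57687928-57703824), which oxidises polycyclic aromatic hydrocarbons, scored 54 and 50, with the site centred 383 bp inside the gene. A second Cyp1a1 promoter site was centred at -62 bp from a protein-coding start 9685 bp inside the gene. It had a peak in replicate 1 alone, with score 30. Cyp1b1 (chr17:79701537-79715061), which oxidises the same hydrocarbons and oestradiol, scored 54 and 42. That Cyp1b1 site counted as a promoter site through the start of an annotated nonsense-mediated decay transcript, 1406 bp inside the gene, and its centre lay at -366 bp from that start.

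The other 3 lung-type promoters differed between the libraries. Cyp2f2 (chr7:27119909-27133660), the club cell enzyme that activates naphthalene, had a peak in replicate 1 alone, with score 42 and a hotspot −log10 q of 2.32. Cyp2b10 (chr7:25897620-25926624), a target of the constitutive androstane receptor, also had a peak in replicate 1 alone, with score 32 and a −log10 q of 1.67. At Cyp2s1 (chr7:25802475-25816913), an epithelial enzyme that dioxin induces, a replicate 1 peak of score 85 lay between replicate 2 peaks of scores 53 and 51, with no base in common. Overlapping hotspots of both libraries nonetheless lay at the Cyp2s1 start, 748 bp wide when merged. Their −log10 q was 100, the highest value listed, in both libraries. All 6 lung-type members thus had a promoter peak in replicate 1 (72.4% of all genes) and 4 of 6 in replicate 2 (69.3%).

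**Figure D1:**
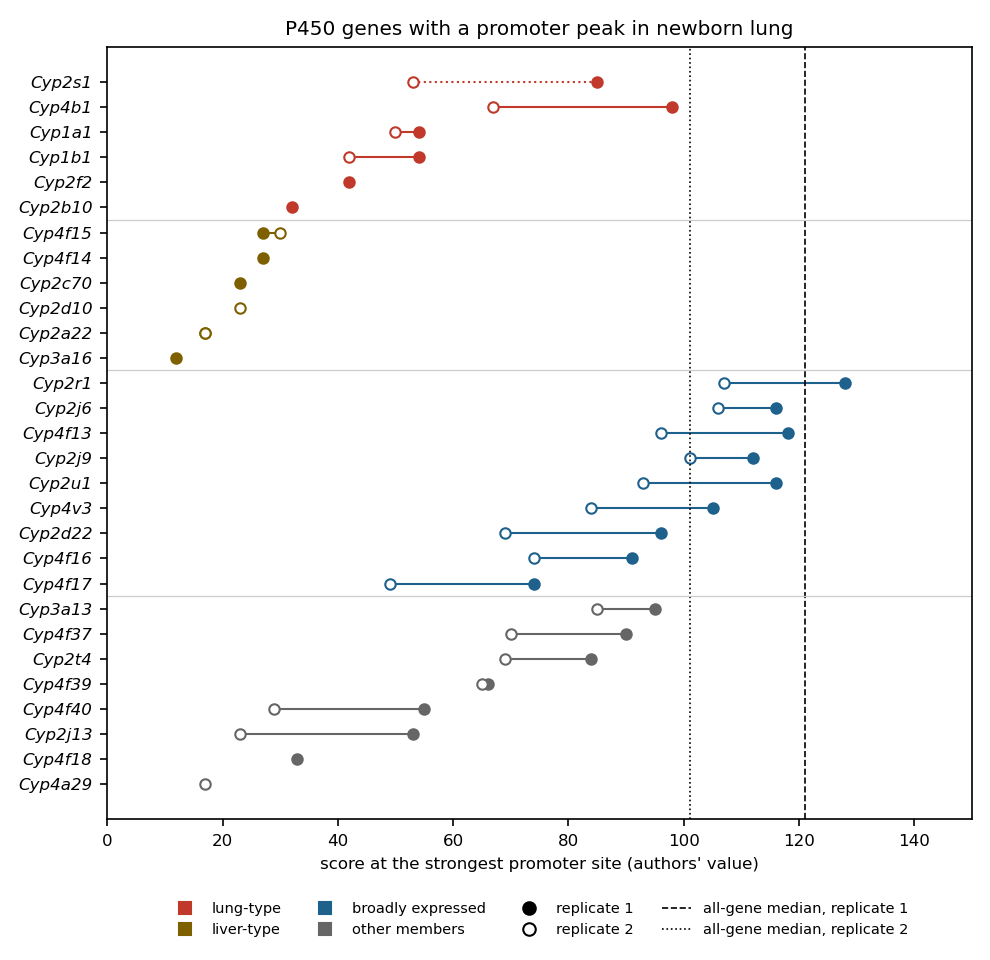
Score in each library at the strongest promoter site (horizontal axis, the authors' value, no unit) of the 29 P450 genes with a promoter peak in either library, by group; filled points are replicate 1, open points replicate 2, and a dotted line joins peaks that do not overlap. The liver-type genes lie between 12 and 30, the broadly expressed genes between 49 and 128, and the vertical lines mark the medians of all genes with a shared promoter site, 121 in replicate 1 and 101 in replicate 2.

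Within 10 kb of the 5′ end, a shared site outside the promoter scored higher in both libraries than every promoter peak at 4 of 6 lung-type genes. The same held at 4 of the 6 liver-type genes with a promoter peak, at 2 of 9 broadly expressed genes, and at 20.5% of all genes with a promoter peak. At Cyp2b10, Cyp2f2, Cyp2c70 and Cyp4f14, replicate 2 had no promoter peak, so only replicate 1 could be compared. At Cyp1b1, the site at -780 bp scored 124 and 109. The site counted as its promoter, at an inner start and centred 1040 bp inside the gene, scored 54 and 42. At Cyp2f2, the site at -1608 bp scored 117 and 77, against 42 in replicate 1 and no peak in replicate 2 at the promoter. At Cyp2b10, the intronic site scored 121 and 95, and replicate 2 had a second peak of score 98 next to it. Another Cyp2b10 site, 9931 bp inside the gene, scored 84 and 79. At Cyp4b1 the margin was small in replicate 1: a site at -1808 bp scored 99 and 84, against 98 and 67 at the promoter, and a site at 2182 bp inside the gene scored 96 and 73.

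Within 10 kb of the 5′ end, a shared site of any kind was found at 5 of 6 lung-type genes, 10 of 37 liver-type genes, 9 of 9 broadly expressed genes and 10 of 28 others. The same held for 81.1% of all protein-coding genes. Cyp2s1 was the lung-type gene without one. The median number of such sites was 4 at lung-type genes and 0 at liver-type genes, beside 3 over all genes.

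**Figure D2:**
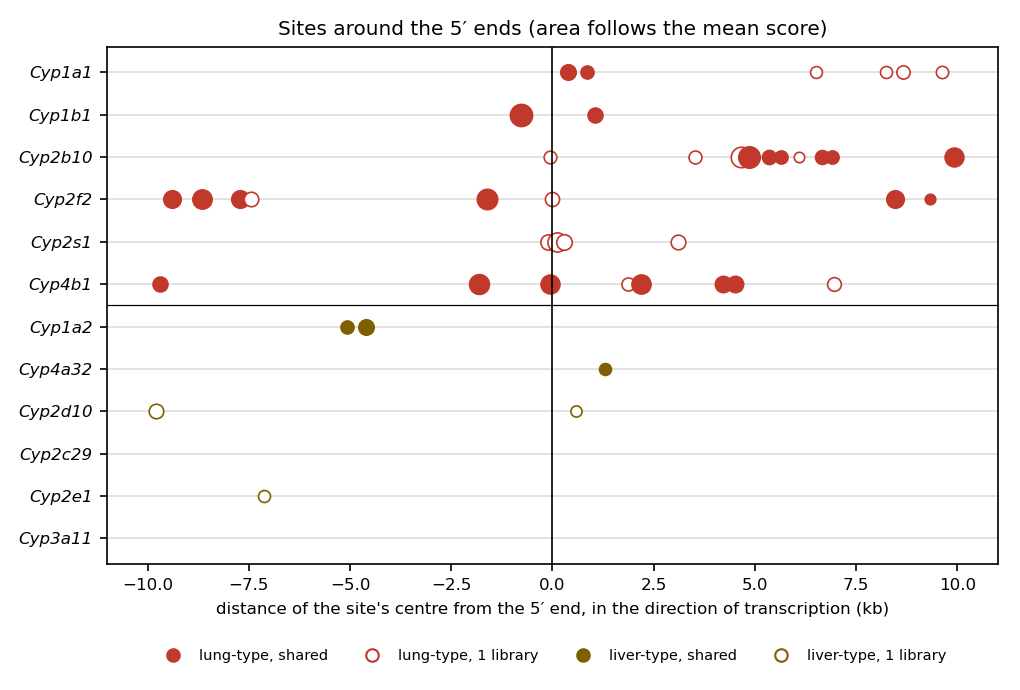
Sites within 10 kb of the 5′ end (horizontal axis, kb in the direction of transcription) of the 6 lung-type genes, above the line, and 6 liver-type genes: Cyp1a2 and Cyp4a32, with the most shared distal sites, Cyp2d10, taken by alphabet over Cyp4f15 (both 7), and Cyp2c29, Cyp2e1 and Cyp3a11. Filled circles are shared sites, open circles sites of 1 library, and circle area grows with the mean score; Cyp2c29 and Cyp3a11 have none.

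Of the 37 liver-type genes, 31 had no promoter peak in either library. Among them were Cyp1a2, which oxidises caffeine, Cyp2e1, the ethanol-inducible enzyme, Cyp3a11, the main target of the pregnane X receptor, and the fatty acid hydroxylase genes Cyp4a10 and Cyp4a14. The 2 with a shared site were weak. Cyp4f15 scored 27 in replicate 1 and 30 in replicate 2, with hotspot −log10 q-values of 2.55 and 4.89. Cyp2a22 scored 17 in both, in hotspots at 100.

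The Cyp1a1 site printed above was 63.7% soft-masked. At least 50% of the bases were soft-masked in 3 of 28 shared promoter sites of members, and in 4.03% of all shared sites, promoter or not. The 3 were the Cyp1a1 site, the Cyp2a22 site (76.2%) and the weakest shared Cyp4f17 site (50.7%). The Cyp4b1, Cyp3a13 and Cyp2r1 sites held no soft-masked base.

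A further 4 liver-type genes had a promoter peak in 1 library. Cyp4f14, which hydroxylates leukotriene B4, had a peak of score 27 in replicate 1. Cyp2c70, which makes muricholic acids in mouse liver, scored 23 in replicate 1. Cyp3a16, an enzyme of the perinatal mouse liver, had peaks of scores 12 and 8 in replicate 1. Cyp2d10 had a peak of score 23 in replicate 2. No peak at a liver-type promoter scored above 30 in either library, while the strongest promoter peak of each lung-type gene scored 32, at Cyp2b10, or more.

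The broadly expressed members had the highest group medians over shared promoter sites, 112 in replicate 1 and 93 in replicate 2. Single genes overlapped the other groups: Cyp4f17, at 74 and 49, scored below Cyp4b1, at 98 and 67. Each broadly expressed promoter was shared and lay in hotspots at 100 in both libraries, as did some promoters of every other group. Cyp2r1, the vitamin D 25-hydroxylase gene, scored 128 in replicate 1 and 107 in replicate 2 at a site 249 bp downstream of a start site, and 111 and 94 at the upstream site printed above. Cyp2j6 scored 116 and 106 and Cyp2j9 112 and 101, both arachidonic acid epoxygenase genes. Cyp2u1, a fatty acid hydroxylase gene, scored 116 and 93.

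The other 5 broadly expressed genes covered a wider range. Cyp4f13 scored 118 and 96, and Cyp4v3, the counterpart of the human gene mutated in Bietti crystalline dystrophy, 105 and 84. Cyp2d22, the only Cyp2d gene with a shared promoter site, scored 96 and 69, and Cyp4f16 91 and 74. Cyp4f17 was lowest at 74 and 49, but carried 3 shared promoter sites, as Cyp2d22 did. Hotspots at these genes, merged over both libraries, spanned up to 1841 bp at Cyp4v3 and 1739 bp at Cyp4f17, with Cyp4f16 narrowest at 203 bp.

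Among the 28 remaining members, 6 had a shared promoter site. Cyp3a13, expressed in intestine, scored 95 and 85 and contrasted with the other 8 Cyp3a genes, none of which had a shared promoter site. Cyp4f37 scored 90 and 70, at a retained-intron transcript that starts 13393 bp inside the gene, and Cyp2t4 scored 84 and 69. Cyp4f39, which hydroxylates very long fatty acids for the skin barrier, scored 66 and 65 at an inner start site and 40 and 40 at its 5′ end. Cyp4f40 scored 55 and 29, and Cyp2j13 53 and 23. Cyp4f18, the leukotriene B4 hydroxylase gene of neutrophils, had a peak of score 33 in replicate 1 alone, and Cyp4a29 a peak of score 17 in replicate 2 alone.

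A shared promoter site was found at 68.5% of all genes. Among subfamilies with at least 4 genes, the highest shares were 7 of 9 Cyp4f and 3 of 8 Cyp2j genes. The lowest were 0 of 15 Cyp2c, 0 of 8 Cyp4a and 0 of 5 Cyp2b genes. The lowest 3 deciles of CpG number, where 24.2% of all genes had one, held 6 Cyp4f, 5 Cyp2j, 14 Cyp2c, 8 Cyp4a and 4 Cyp2b genes. All 9 Cyp4f genes had a promoter peak in replicate 1 (72.4% of all genes) and 7 of 9 in replicate 2 (69.3%). Over the 20 members with a shared promoter site, the median score was 90.5 in replicate 1 and 69 in replicate 2, against 121 and 101 over all 15032 genes with one. In both libraries, 17 of the 20 lay below those medians. Set against all promoter peaks of each list, which include weaker peaks at the same genes, 8 of 20 lay below the 50th percentile in both.

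Promoters without a shared site were mostly poor in CpG, and some were close copies. The median number of CpG dinucleotides within 500 bp of the 5′ end was 14 (4 to 38) at lung-type genes. It was 5 (0 to 11) at liver-type genes and 26 (7 to 65) at broadly expressed genes, beside 41 over all genes. All 37 liver-type genes lay in the lowest 3 deciles of CpG number, as did 3 of 6 lung-type genes. In those deciles a shared promoter site was found at 8 of 63 members (24.2% of all genes there), of which 2 of 3 lung-type and 2 of 37 liver-type. In the upper 7 deciles it was found at 12 of 17 members (87.6% of all genes there).

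Reads from near-identical copies may not be placed, so the share of 32-base words that occur once in the genome was counted over each promoter. The median was 96.5% at lung-type genes, 70.7% at liver-type genes and 100% at broadly expressed genes, beside 81.0% over a grid of the genome. It was under 50% at 10 liver-type genes, lowest at Cyp2c29 with 3.40%. Over the 60 members without a shared promoter site the median was 82.8%, with 13 under 50% and 23 at 90% or more. The closest copies were Cyp3a41a and Cyp3a41b, which have 84.4% of their promoter words in common, and Cyp4a12a and Cyp4a12b, with 73.0%. A missing peak at these genes is uncertain. With at least 90% unique words, 2 of 5 lung-type, 1 of 10 liver-type and 8 of 8 broadly expressed genes had a shared promoter site. The promoters of Cyp2e1, Cyp4a14, Cyp2j5 and Cyp4f14 were 100% unique and had no shared site. What part CpG number and copy number play was not tested.

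**Figure D3:**
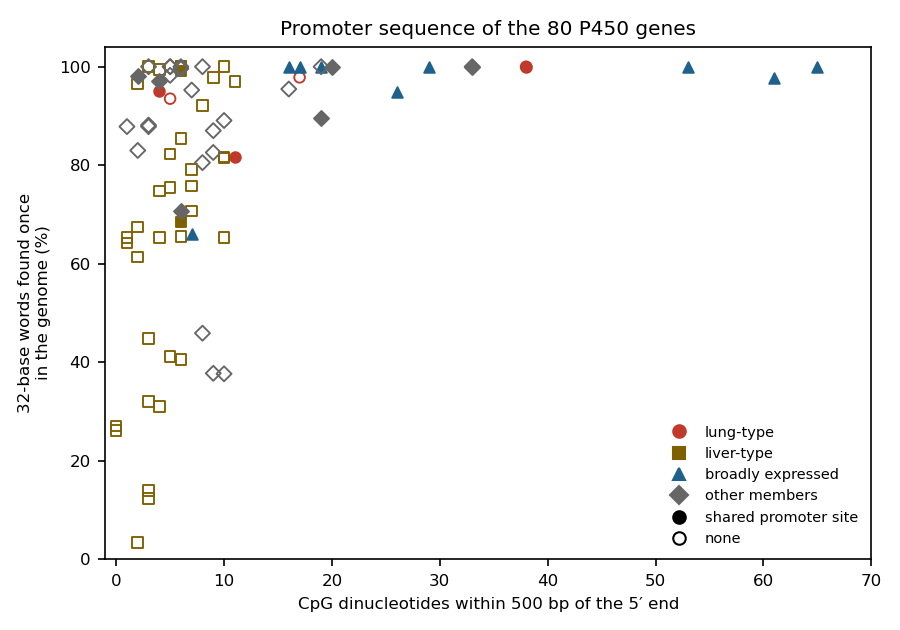
CpG dinucleotides within 500 bp of the 5′ end (horizontal axis) and share of 32-base promoter words found once in the genome (vertical axis, percent) for the 80 P450 genes; filled symbols have a shared promoter site. Liver-type genes lie at 11 CpG or fewer and spread from 3.40% to 100% unique, and the broadly expressed genes lie to the right of most of them.

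Distal sites put the groups in another order than promoters did, with lung-type genes above broadly expressed ones. The 6 lung-type genes had 20 (Cyp2s1), 15 (Cyp1a1), 11 (Cyp2b10), 10 (Cyp1b1), 10 (Cyp2f2) and 10 (Cyp4b1) shared distal sites within 50 kb, a median of 10.5. Liver-type genes had a median of 1 (0 to 14), and 11 of 37 had none. The median was 4 at broadly expressed genes, 1 at other members and 8 over all genes. At least 1 shared distal site was found near 6 of 6 lung-type and 26 of 37 liver-type genes (88.9% of all genes). Counted by nearest protein-coding TSS, the lung-type genes had 12, 1, 9, 7, 9 and 7 in the order above, a median of 8. The liver-type median was then 1.

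The 2 liver-type genes with the most distal sites lie next to lung-type genes and share those sites with them. All 14 near Cyp1a2 were also within 50 kb of Cyp1a1, and all 10 near Cyp4a32 were also within 50 kb of Cyp4b1. Next came Cyp2d10 and Cyp4f15 with 7 each, and the sites near Cyp2d10 reached 119 and 86 inside Cyp2d22 and 110 and 91 in an intergenic site whose nearest protein-coding TSS is that of Cyp2d10. In all, 74 distal sites lay near a lung-type gene and 71 near a liver-type gene, with 25 in both sets. The 49 near a lung-type gene alone had median scores of 73 and 54, and the 46 near a liver-type gene alone of 37 and 27, beside 63 and 43 over all shared distal sites.

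**Figure D4:**
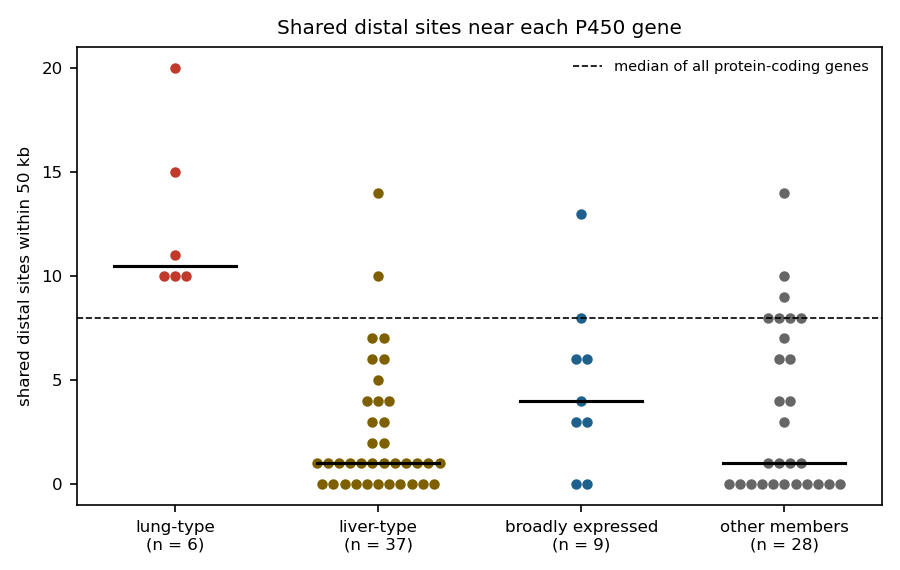
Shared distal sites within 50 kb (vertical axis, number of sites) of each P450 gene by group; each point is a gene, thick bars are group medians and the dashed line is the median of all protein-coding genes, 8. The 6 lung-type genes have 10 to 20 sites each and the liver-type genes lie mostly at 0 and 1.

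Of 215 shared distal sites near any member, 127 had a member as the nearest protein-coding TSS, 56 lay inside a member and 70 were near more than 1. The strongest by mean rank (chr5:139372196-139372365), 130 in replicate 1 and 113 in replicate 2, lay near Cyp2w1, with Gpr146 as its nearest protein-coding TSS. The second (chr7:25756116-25756265), 133 and 99, lay near Cyp2s1, with Hnrnpul1 as its nearest protein-coding TSS. The third was the Cyp2b10 intronic site, and the fourth (chr7:25802296-25802465), 120 and 92, lay just beyond the 3′ end of Cyp2s1. The fifth (chr19:44021696-44021865), 116 and 93, lay inside Cyp2c23, an arachidonic acid epoxygenase gene with 10 shared distal sites and no promoter peak. Cyp2w1 had 14 and no promoter peak, and it held the nearest protein-coding TSS for 3 of the 14.

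The tandem clusters held long stretches with no shared site. A cluster was a run of members at most 250 kb apart, and the 9 clusters with more than 1 member covered 5.08 Mb and held 71 of the 80 genes. They held 127 shared sites, or 2.50 per 100 kb, against 5.91 over the genome. Per 100 kb of unique sequence, the clusters had 4.04 and the genome 7.29.

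The Cyp2c cluster of 14 genes, 1180 kb long, had 4 shared sites, or 0.339 per 100 kb (0.613 per 100 kb of unique sequence). Its longest stretch with no shared site was 593.11 kb and held Cyp2c65, Cyp2c66, Cyp2c29, Cyp2c38 and Cyp2c39. The Cyp3a cluster from Cyp3a57 to Cyp3a59 had 0.781 and the Cyp2j cluster 0.785 per 100 kb, or 1.52 and 1.07 per 100 kb of unique sequence. In the Cyp2j cluster, 3 of 5 shared sites were the promoters of Cyp2j13, Cyp2j6 and Cyp2j9. The longest stretch of all, 821.61 kb, held Cyp2b13, Cyp2b9, Cyp2a4 and Cyp2b23, and 114 of 161030 such stretches in the genome were longer. Cyp2e1, which is no part of a cluster, lay in one of 297.25 kb.

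Other clusters held more shared sites. The Cyp4f cluster, which also held 4 other protein-coding genes, had 9.10 per 100 kb. The Cyp1a pair had 11.2, from 3 sites in 26.9 kb. In the cluster from Cyp4x1 to Cyp4b1 the counts of distal sites within 50 kb were 1 at Cyp4a14, 4 at Cyp4a10, 6 at Cyp4a31, 10 at Cyp4a32 and 10 at Cyp4b1, the 5 genes at one end. Over the rest of that cluster there was no such order: Cyp4x1, at the other end, had 8, Cyp4a29, Cyp4a12a and Cyp4a12b had 1 each and Cyp4a30b had 0. Neighbouring genes count some of the same sites.

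**Figure D5:**
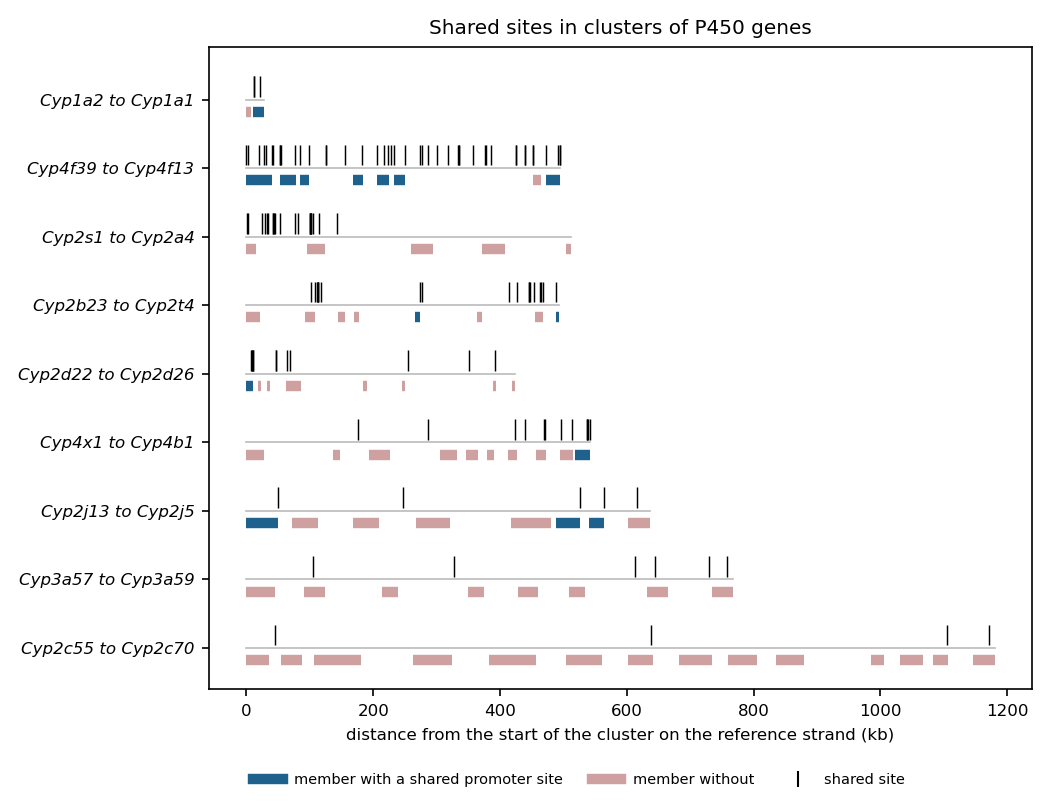
The 9 clusters of P450 genes, drawn from the start of the cluster (horizontal axis, kb on the reference strand) and ordered by shared sites per 100 kb; bars are member genes, blue with and pink without a shared promoter site, and black ticks are shared sites. Ticks run through the whole Cyp4f cluster and are confined to a few positions in the Cyp2c cluster, which has 4.

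Motif matches were counted in the 150 bp around each site's centre, on both strands. Members had 28 shared promoter sites. CTCAAG was in 6 of the 28 (21.4%), at Cyp1a1, Cyp2j9, Cyp2j13, Cyp2r1 (the stronger site, which is not the one printed), Cyp2u1 and Cyp4f37, and in 7.73% of all shared promoter sites. It was in 12.2% of the 74 distal sites near lung-type genes and 12.7% of the 71 near liver-type genes, beside 12.2% of all shared distal sites. The Cyp2f2 and Cyp2b10 sites printed above were among the distal matches.

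The XRE core GCGTG, which the extended form contains, was in 6 of 28 promoter sites of members (21.4%), against 29.5% of all. The promoter matches were at Cyp2j9, Cyp2r1, Cyp2u1 and Cyp4f39, and none was in the 3 shared promoter sites of lung-type genes. Promoter peaks of 1 library and the Cyp1b1 site at -780 bp lay outside this set. The core was in 13 of 74 distal sites near lung-type genes (17.6%) and 7 of 71 near liver-type genes (9.86%), beside 9.92% of all. The extended TNGCGTG was in 4 of 215 distal sites near members (1.86%) and 1.61% of all. It occurred at 2 positions each in the Cyp1b1 distal site, with scores of 91 and 71, and the Cyp1a distal site, with scores of 71 and 51. The other 2 of the 4 lay near Cyp2w1, with scores of 109 and 71 and of 50 and 37. Of the 28 promoter sites, 1 held it, at Cyp2r1 (3.71% of all shared promoter sites), and the Cyp1b1 upstream site held 1 match.

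AP-1 was in 3 of 28 promoter sites (10.7%) and 4.13% of all, with 2 matches in the Cyp3a13 site printed above, which has no CpG, and 1 each at Cyp2u1 and Cyp4v3. TATAAA, TTGCNNAA for C/EBP factors and TGTTTAC for forkhead factors were in 0 of 28, and in 2.72%, 5.25% and 1.74% of all shared promoter sites. GGGCGG, the GC box, was in 11 of 28 (39.3%) and 41.9% of all. The half-site AGGTCA was in 3 of 28 (10.7%) and 5.99% of all, and in 14.4% of member distal sites and 10.1% of all. Its paired forms for nuclear receptors, DR1, DR4 and ER6, which contain the half-site, and the HNF1 palindrome were in no site of a member, and in at most 0.0310% of all sites of either kind. The CTCF motif was in 3 distal sites (1.40%), near Cyp4x1, Cyp2w1 and Cyp2b19, and in 1.35% of all. The glucocorticoid response element was in 1 (0.0276% of all), near Cyp2b10, with scores of 32 and 33. A match shows these letters in the window and no binding.

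Genes that regulate P450 genes or serve P450 enzymes, of these or other families, were counted in the same way. Of 10 receptor and partner genes, 8 had a shared promoter site, beside 68.5% of all protein-coding genes, and nothing particular to these genes is read from that count. Ahr, the aryl hydrocarbon receptor, scored 111 in replicate 1 and 89 in replicate 2, its partner Arnt 142 and 133, and its repressor Ahrr 71 and 64. That Ahrr site lay at a start inside the gene, away from its 5′ end. Nr1i2, the pregnane X receptor gene, scored 65 and 55, and Nr1h4, the farnesoid X receptor gene, 61 and 34.

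Ppara scored 126 and 103, and the shared partners Rxra and Rxrb 120 and 99, and 125 and 111. The Rxra site lay at a start inside the gene, away from its 5′ end, and the Rxrb site also at TSSs of Slc39a7 and Gm20427. Nr1i3, the constitutive androstane receptor gene that acts on Cyp2b10, and Hnf4a, the hepatocyte regulator, had no promoter peak, with 15 and 20 shared distal sites within 50 kb. All 6 electron donor genes had a shared promoter site, as did 68.5% of all genes and 87.6% of those in the upper 7 CpG deciles. Por, the reductase of all microsomal P450 enzymes, scored 140 and 131, Cyb5a 141 and 131, Cyb5b 127 and 106, Cyb5r3 132 and 115, Cyb5r1 106 and 82, and Fdxr 138 and 131. The Por and Cyb5a sites lay at starts inside the genes, away from their 5′ ends, and the Cyb5r3 site also at a TSS of Gm49463. At these sites, each of the 6 scored higher than the Cyp4b1 promoter site in both libraries.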

How the data were processed

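DNase-seq peaks and hotspots of 2 libraries of newborn lung, numbered as in the labels, were used. Per the deposited notes, the authors called both on each library's own alignments to mm10. The sources used here do not name the aligner or the caller, and give no depth. The labels list 2 instrument models for replicate 1 and none for replicate 2, so an effect of the instrument cannot be told apart from other differences between the libraries. The deposited peak score and the deposited hotspot −log10 q-value, per the file headers' format, were used as given. Intervals on chromosomes 1 to 19, X and Y were kept and exact duplicates removed. Peaks overlapping by at least 1 bp were merged, and so were hotspots, whose widths are those of the merged intervals. Genes and TSSs came from GENCODE M21, sequence and soft-masking from the RefSeq file of GRCm38. CpG dinucleotides were counted up to 500 bp either side of each 5′ end, and unique 32-base words over the same window on both strands, whatever the unknown read length. The calls were checked on simulated peak lists. Versions were Python 3.11.15, numpy 2.4.6, pandas 2.3.3 and matplotlib 3.10.9.

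Members, groups, motifs and lists were chosen with earlier results of these data known, and no list was tested. Named are all lung-type and broadly expressed members, every other member with a promoter peak, the 3 liver-type genes with the most shared distal sites (ties by alphabet), the 5 distal sites of highest mean rank, and the pathway and marker lists. Genes named beyond these (Cyp2c29, Cyp2e1, Cyp2j5, Cyp3a11, Cyp4a10, Cyp4a14, and those named in clusters, in motif matches and as close copies) were chosen after their values were seen, as were the counts of sites within 10 kb, the soft-masked share and the split of distal sites between groups. Alternatives changed the overlap, promoter width, TSS choice, score threshold, distance, hotspots and each replicate. Those on unique words were chosen after seeing the data. The sequence of 1 promoter site is not reported here.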

Additional observations from a re-analysis of the deposited data

How the results depend on the processing

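The count of members with a shared promoter site stayed within 1.5 times its value (15 to 27 of 80) except over promoters with at least 90% unique words, where the share was 39.5% (15 of 38) beside 25%. The counts of broadly expressed members (9 of 9, and 8 of 8 with at least 90% unique words) and of shared hotspots (17 to 27) stayed within 1.5 times under every alternative. Of 77 recomputed values, 57 moved little and 20 moved. The lung-type count of 3 became 1 with a 250-bp promoter and ranged from 4 to 6 when 1 library was left out. The liver-type count of 2 became 0 with peaks at or above the median score, 1 of 10 with at least 90% unique words, and 3 to 5 when 1 library was left out. Members below the all-gene median score, 17 of 20, became 8 by percentile among promoter peaks. The lung-type median of 10.5 distal sites became 7 with peaks at or above the median score, 4.5 within 10 kb, 20.5 within 100 kb, 8 by nearest TSS, and 12 to 15 when 1 library was left out. The liver-type median of 1 became 0, 0 and 2 under the first 3 of these, and 2 when either library was left out. The lung-type value was the higher under each of these settings. The cluster density of 2.50 became 1.12 with peaks at or above the median score, 3.13 to 4.49 when 1 library was left out, and 4.04 over unique positions. Replicate 1 alone adds Cyp2b10, Cyp2f2, Cyp2s1, Cyp2c70, Cyp3a16, Cyp4f14 and Cyp4f18 to the promoter calls, and replicate 2 alone adds Cyp2s1, Cyp2d10 and Cyp4a29. The cause was not tested. No paired analysis was possible because the series holds 1 group. Depth being unknown, a missing peak is no proof of closed chromatin.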

Other observations

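Around Cyp3a16, replicate 1 listed 14 distal sites within 50 kb and replicate 2 listed 1. Of the 14, 13 were in replicate 1 alone, with scores of 7 to 19 and a median of 9. Its promoter peaks of 12 and 8 nonetheless lay in a replicate 1 hotspot with a −log10 q of 100 and a width of 525 bp. The 6 distal sites of replicate 1 near Cyp3a41b were also in that library alone, with scores of 12 to 22. So were all 5 near Cyp2j6 and all 6 near Cyp2j9, with scores of 18 to 28. The promoter of Cyp3a16 had 44.8% unique words and that of Cyp3a41b 13.9%, while those of Cyp2j6 and Cyp2j9 had 100%. Over the whole lists, 29.4% of replicate 1 peaks and 28.0% of replicate 2 peaks with scores of 17 or less lay in hotspots at 100, beside 10.6% and 8.91% of peaks with scores of 18 to 30. The Cyp2a22 peaks, at 17 in both libraries, were among the 29.4% and the 28.0%. The cause was not tested.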
